A study of Mus musculus with 12 samples.

Results

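Accessible chromatin at the serpin genes of clades A and B was examined in mTEChi, the mature medullary epithelial cells of the thymus that express AIRE. The members were all protein-coding mouse genes whose symbol starts with Serpina or Serpinb, 52 of 21631 genes on chromosomes 1 to 19 and X: 24 of clade A and 28 of clade B. A gene was called open in a library when a peak of that library's list lay within 1 kb of either annotated gene end. Sorted cells of C57BL/6 mice aged 4-7 weeks gave 12 ATAC-seq libraries in 6 groups of 2. The mutants were Aire -/- (no functional AIRE), Aire +/C313Y and Aire +/C442G, the last pair each with 1 missense allele beside 1 wild-type allele. Each mutant pair had its own pair of Aire +/+ wild types, matched by the form of the titles. Named here by that match, they are the knockout-set, C313Y-set and C442G-set wild types. The labels do not say whether the libraries of a pair came from separate animals, so the spread between them may be technical.

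Serpins fold into a metastable structure with an exposed loop. In the inhibitory members a protease cuts this loop and is trapped by the refolding serpin. Clade A proteins are mostly secreted by the liver into plasma, and include antitrypsin (Serpina1), antichymotrypsin (Serpina3) and carriers of hormones. Clade B proteins lack a classical secretion signal, act mostly inside cells, and are known from squamous epithelium, blood cells and lymphocytes. Rodents carry many tandem copies of Serpina1, Serpina3, Serpinb3, Serpinb6 and Serpinb9. Ectopic expression of such tissue-restricted genes in mTEChi is what AIRE is known for.

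The members lie in 3 clusters plus 1 single gene (mm10). Clade A filled 798 kb of chromosome 12 (12:103616675-104414334, 23 genes), with Serpina7 alone on X. Clade B was split between 748 kb of chromosome 1 (1:106861175-107608978, 12 genes) and 1160 kb of chromosome 13 (13:32842092-34002794, 16 genes).

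Promoter sequences are shown for the 4 members open in every library, for Serpina3n and Serpinb2, whose calls differed between genotypes, and for a closed gene of each clade. Each is the 250 bases before a RefSeq start of transcription (GRCm38.p6, the mm10 coordinates), read 5′ to 3′ on the gene's strand. Capitals mark a match, on either strand, to TATAAA (the TATA box), GGGCGG (the GC box), TGANTCA (the AP-1 site) or CCGGAAG (the ETS site). Of the open genes, Serpina3g (12:104235897-104236146, plus strand) had no such match. The clade B genes that were always open carried AP-1 and GC box letters in Serpinb5 (1:106860925-106861174, plus), AP-1 letters in Serpinb8 (1:107589756-107590005, plus), and GC box and ETS letters in Serpinb6a (13:34002795-34003044, minus).
Serpina3g: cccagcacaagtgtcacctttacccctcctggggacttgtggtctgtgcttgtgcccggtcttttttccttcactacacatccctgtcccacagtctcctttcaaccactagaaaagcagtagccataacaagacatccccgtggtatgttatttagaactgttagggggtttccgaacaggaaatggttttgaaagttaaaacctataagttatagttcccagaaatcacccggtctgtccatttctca
Serpinb5: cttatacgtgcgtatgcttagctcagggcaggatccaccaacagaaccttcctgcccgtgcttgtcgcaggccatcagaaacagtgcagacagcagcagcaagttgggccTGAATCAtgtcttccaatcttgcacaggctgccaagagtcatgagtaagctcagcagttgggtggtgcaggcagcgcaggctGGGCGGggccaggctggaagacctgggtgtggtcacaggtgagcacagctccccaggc
Serpinb8: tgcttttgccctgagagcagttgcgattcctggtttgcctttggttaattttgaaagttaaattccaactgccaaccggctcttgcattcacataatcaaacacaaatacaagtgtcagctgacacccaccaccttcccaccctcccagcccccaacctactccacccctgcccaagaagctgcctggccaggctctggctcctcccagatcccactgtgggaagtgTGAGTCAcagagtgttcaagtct
Serpinb6a: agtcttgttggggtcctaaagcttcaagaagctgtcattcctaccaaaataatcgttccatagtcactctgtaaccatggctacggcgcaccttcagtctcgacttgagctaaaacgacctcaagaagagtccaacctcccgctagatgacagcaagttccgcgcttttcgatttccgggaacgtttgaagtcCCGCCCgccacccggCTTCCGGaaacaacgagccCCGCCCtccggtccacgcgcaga
Serpina3n (12:104406458-104406707, plus) had no match, and Serpinb2 (1:107511173-107511422, plus) had an AP-1 and a TATA box match. Serpinb2 was added to those printed after its values were seen.
Serpina3n: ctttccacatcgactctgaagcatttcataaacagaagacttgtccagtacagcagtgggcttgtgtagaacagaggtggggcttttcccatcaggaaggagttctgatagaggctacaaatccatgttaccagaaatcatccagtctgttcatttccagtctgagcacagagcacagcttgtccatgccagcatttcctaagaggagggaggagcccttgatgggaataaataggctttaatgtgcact
Serpinb2: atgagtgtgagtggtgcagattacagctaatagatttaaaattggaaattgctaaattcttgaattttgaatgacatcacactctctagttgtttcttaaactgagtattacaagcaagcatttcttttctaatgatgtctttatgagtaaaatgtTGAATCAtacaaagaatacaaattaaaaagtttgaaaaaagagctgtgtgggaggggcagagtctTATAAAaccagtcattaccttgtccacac
Serpina12 (12:104044444-104044693, minus) and Serpinb11 (1:107362064-107362313, plus) had no peak at either gene end in any library.
Serpina12: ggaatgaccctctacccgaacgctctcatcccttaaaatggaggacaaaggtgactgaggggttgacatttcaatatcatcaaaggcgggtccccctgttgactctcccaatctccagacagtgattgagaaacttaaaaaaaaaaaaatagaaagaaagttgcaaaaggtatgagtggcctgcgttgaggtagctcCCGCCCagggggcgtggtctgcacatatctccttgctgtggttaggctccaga
Serpinb11: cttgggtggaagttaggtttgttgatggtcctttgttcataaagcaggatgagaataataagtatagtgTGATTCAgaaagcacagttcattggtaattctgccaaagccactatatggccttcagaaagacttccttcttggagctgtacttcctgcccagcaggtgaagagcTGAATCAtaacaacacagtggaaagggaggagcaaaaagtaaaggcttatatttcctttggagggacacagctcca

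The lists held 34047 to 122326 peaks covering 7.04 to 30.3 Mb, and read depth was not known, so a missing peak means only that none was called. The knockout-set wild types had the shortest lists, at 34715 and 34047 peaks against 85826 and 94976 in the Aire -/- libraries. The C313Y contrast had 75830 and 57280 peaks in mutants and 73976 and 55861 in wild types. The C442G contrast had 122326 and 115034 in mutants and 93659 and 94458 in wild types. Of 20 genes listed for medullary epithelium, not all of them specific to mTEChi, 11 were open in all libraries, among them Aire, Epcam, Cd74, Cd40 and H2-Aa. Of the others, Cldn4 and Fezf2 were open in 11 libraries, Cd86 and Foxn1 in 9, and Krt5 and Krt14 in 8. Cd80 and Ccl21a were open in 1 library and Ciita in none. Aire was open also in the Aire -/- libraries, and a peak there does not check the deletion. Among 12 T cell markers, 5 and 4 were open in the Aire -/- libraries and 1 in both of their wild types. Cd4 and Lat were open in 9 libraries, Cd3d in 7 and Thy1 in 6, and Cd8a, Lck, Rag1 and Rag2 in none. Cd4, Lat and Thy1 were gained in Aire -/- (open in both mutants and closed in both of their wild types), as were 5.21% of all genes. Thy1 was also lost (the reverse) in Aire +/C442G, as were 0.291% of all genes. Of all genes, 61.3% and 63.0% were open in the Aire -/- libraries and 51.6% in both of their wild types. Of 9 dendritic cell and macrophage markers, 5 were open in both Aire -/- libraries and 2 in both of their wild types. Xcr1 and Flt3 were open in all 12 libraries, Siglech in none, and Clec9a and Zbtb46 were gained in Aire -/-. The part of other cells in the results was not tested.

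Serpin genes were open less often than genes at large in every library. The 12 libraries had 6 to 18 open members (median 11.5) of 52, while 51.6% to 66.2% of all protein-coding genes were open. Clade A had 4 and 2 open genes of 24 in the Aire -/- libraries and 4 and 2 in their wild types. It had 6 and 3 in Aire +/C313Y against 8 and 4 in wild types, and 8 and 7 in Aire +/C442G against 8 and 7. Clade B had 7 and 7 open genes of 28 in the Aire -/- libraries and 3 and 4 in their wild types. It had 6 and 7 in Aire +/C313Y against 8 and 5, and 8 and 8 in Aire +/C442G against 10 and 9.

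Clade B was thus higher in both Aire -/- libraries than in their wild types and lower in both Aire +/C442G libraries than in theirs, while the C313Y groups overlapped. Of all genes, 61.3% and 63.0% were open in Aire -/- against 51.6% in both wild types, the same direction as clade B. In Aire +/C442G 66.2% and 65.2% of all genes were open against 63.5% and 64.5%, the opposite direction to clade B. Clade A groups overlapped in all 3 contrasts. With the lists of a contrast cut to equal length, clade B had 6 and 3 open genes in Aire -/- against 3 and 4, so the groups overlapped, and clade A had 1 and 0 against 2 and 2. Of all genes, 49.4% and 49.5% were then open in Aire -/- against 51.3% and 51.6%. In Aire +/C442G clade B then had 8 and 7 against 10 and 9, where 62.8% and 62.3% of all genes were open against 63.5% and 64.4%. The Aire -/- lists were about as long as those of the C442G-set wild types, yet held 4 and 2 open clade A genes against 8 and 7. Those libraries belong to different sets, so genotype and set cannot be told apart there. The shares of open genes plotted against list length show the same values.

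**Figure D1:**
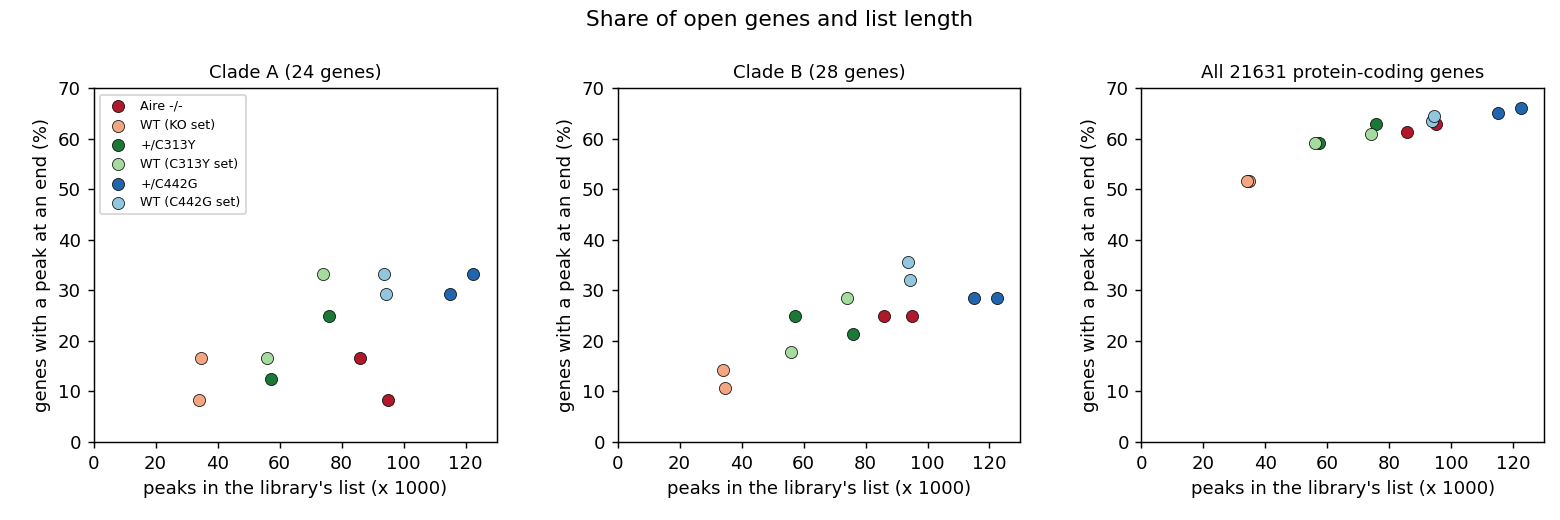
Share of genes with a peak at a gene end (%) against the number of peaks in the library's list (in units of 1000), for clade A, clade B and all protein-coding genes. Each point is 1 library, coloured by group. All points of both clades lie at or below 35.7%, under the 51.6% to 66.2% of all genes.

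Which clade was more open depended on the window. Within 1 kb of either end, the share of open genes was higher for clade B in 7 of 12 libraries, with a median of 5 open genes in clade A and 7 in clade B. Counting peaks anywhere in the gene as well, clade B was higher in 12 of 12 libraries, with medians of 8.5 and 13.5 genes. At annotated starts of transcription it was higher in 11 of 12. With windows of 2500 bp, clade A was higher in 9 of 12 libraries, with medians of 10 and 9.5 genes. Members of clade B were also longer, with a median of 14.5 kb against 9.45 kb.

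Only 4 members were open in all 12 libraries, 7.69% of 52 against 46.6% of all genes: Serpina3g, Serpinb5, Serpinb6a and Serpinb8. Serpina3g encodes an intracellular inhibitor of lysosomal cathepsins, and it was the single clade A gene of this class. Its peak, over the promoter shown above, was 342 and 386 bp wide in Aire -/- and 217 and 608 bp in their wild types. In Aire +/C313Y it was 420 and 246 bp against 173 and 201 bp, and in Aire +/C442G 388 and 386 bp against 376 and 350 bp. Mutant and wild-type widths separated in the C313Y and C442G contrasts and overlapped in the knockout contrast.

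Serpinb5 encodes maspin, an epithelial serpin that does not inhibit proteases. Its start had a narrow peak, 99 and 180 bp in Aire -/- against 158 and 153 bp in their wild types. It was 217 and 111 bp in Aire +/C313Y against 247 and 184 bp, and 180 and 231 bp in Aire +/C442G against 335 and 285 bp. The Aire +/C442G widths lay below both of their wild types, and the other contrasts overlapped. The authors' fold enrichment there ranged from 3.62 to 9.95 over the 8 lists that give one.

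Serpinb8, known as an inhibitor of furin, had start peaks of 556 and 491 bp in Aire -/- and of 406 and 70 bp in their wild types. The widths were 397 and 148 bp in Aire +/C313Y against 233 and 282 bp, and 549 and 513 bp in Aire +/C442G against 460 and 452 bp. Mutants were the wider in the knockout and C442G contrasts, the direction of most regions with a peak in all 12 libraries. Serpinb6a, an intracellular inhibitor of cathepsin G, had the widest region of the 4, covered by peaks over 493 to 893 bp (median 815.5 bp). That region (13:34002062-34002954) also lies within 1 kb of Ripk1, so the peak may belong to either gene. A second region (13:33964200-33965413) inside Serpinb6a, also in all 12 libraries, lies near Nqo2.

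A further 22 members were open in some libraries. Serpina3i was open in 11, missing only in the first knockout-set wild type. Serpinb9 (the granzyme B inhibitor), Serpinb10 and Serpinb1a (an elastase inhibitor) were open in 10, and Serpinb1b in 8. Serpina11 and Serpina5, the protein C inhibitor, were open in 7. Serpina5 was closed in all 4 libraries of the knockout contrast and open in all 4 of the C442G contrast. Serpina3j was open in 5, Serpina3n in 4, and Serpina16, Serpina3b and Serpinb2 in 3. Serpina10, Serpina1e, Serpina3c, Serpina7, Serpinb7 and Serpinb6e were open in 2. Serpina6, Serpina1c, Serpina9 and Serpinb12 were open in 1. Clade A supplied 14 of the 22 and clade B 8, and of the 8 members open in at least 9 libraries 2 were of clade A and 6 of clade B.

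**Figure D2:**
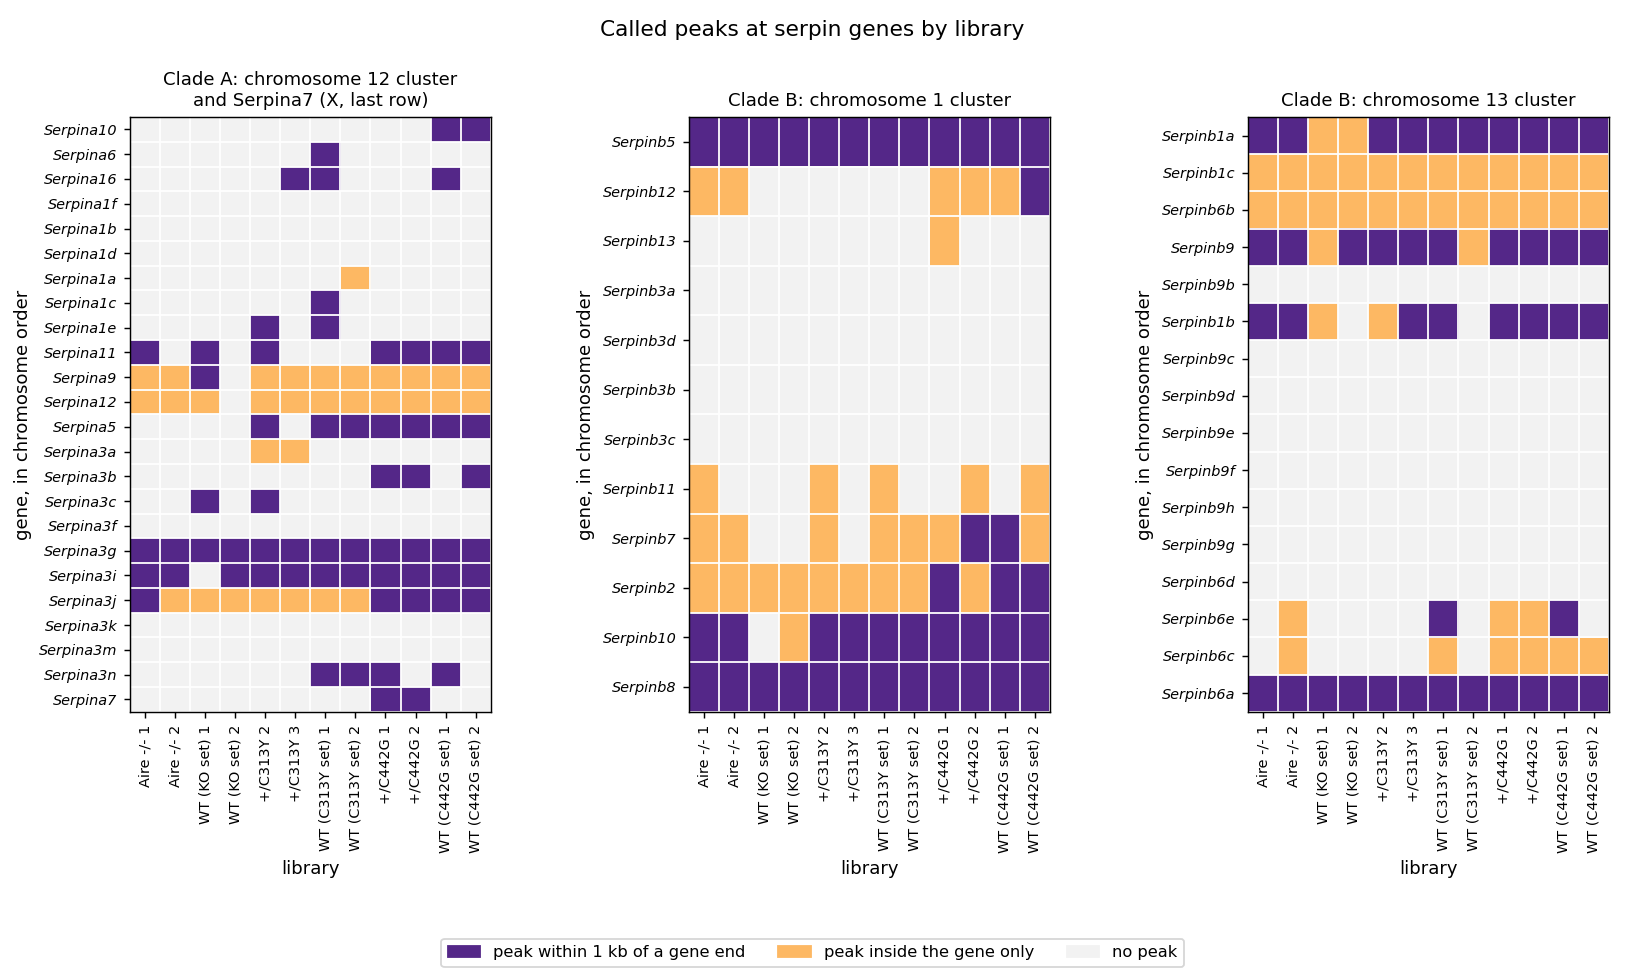
Peaks at the 52 genes (rows, in chromosome order) in the 12 libraries (columns). Purple marks a peak at a gene end (within 1 kb), orange a peak inside the gene only, and grey no peak. The 4 fully purple rows are Serpina3g, Serpinb5, Serpinb8 and Serpinb6a, and most rows of Serpina1, Serpinb3 and Serpinb9 genes are grey.

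No library had a peak at either end of 26 of the 52 members, where 25.8% of all genes were closed: 9 of clade A (37.5%) and 17 of clade B (60.7%). They were Serpina1a, Serpina1b, Serpina1d, Serpina1f, Serpina3a, Serpina3f, Serpina3k, Serpina3m and Serpina12 (vaspin). In clade B they were all 4 Serpinb3 genes, 7 of 8 Serpinb9 genes, Serpinb6b, Serpinb6c, Serpinb6d, Serpinb1c, Serpinb11 and Serpinb13. Of members with a numbered sister gene, 8 of 16 in clade A and 5 of 20 in clade B were open in any library. Of those without one the counts were 7 of 8 and 6 of 8. Reads from near-identical copies can be lost in mapping, and how the authors treated them is not given in the sources used here. Of 45 members with a promoter entry, 5 had one at least 90% identical to that of another member (Serpina1a, Serpina1b, Serpina1c, Serpinb9e and Serpinb9g), and 1 of these was open in any library. Of the other 40, 21 were.

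Some of the closed members had peaks inside the gene. Serpinb1c and Serpinb6b had one in 12 of 12 libraries, and Serpina12 in 11. The annotated start of Serpinb6b lies inside the listed gene, and its promoter had a peak in 9 libraries. With the whole gene counted, 34 of 52 members had a peak in some library, 10 in all 12, and 18 in none. Those 18 were 6 of clade A and 12 of clade B, including all 4 Serpinb3 genes and every Serpinb9 gene but Serpinb9 itself. At annotated starts, 1 of 19 clade A genes and 4 of 26 clade B genes with an entry were open in all 12 libraries, against 49.4% of all genes.

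Some of the closed genes lay together, while others, such as Serpina12, Serpina3a and Serpina3f, lay between members open in at least 1 library. The longest stretch of each cluster without any peak, in any library, was 365 kb on chromosome 13 (13:33183315-33547978), holding Serpinb9d, Serpinb9e, Serpinb9f, Serpinb9h and Serpinb9g. It was 144 kb on chromosome 12 (12:103710626-103854899), holding Serpina1b and Serpina1d. On chromosome 1 it was 101 kb (1:107026168-107127499), holding Serpinb3a and Serpinb3d. On chromosome 12 the 364 kb below Serpina11, a boundary chosen after seeing the data, held 21 merged regions, 3 of them in 6 or more libraries. The 434 kb from Serpina11 up held 83, of which 28 were in 6 or more. Merged regions are the joined peaks of the 12 lists, and the map of the 3 clusters shows where they fall.

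**Figure D3:**
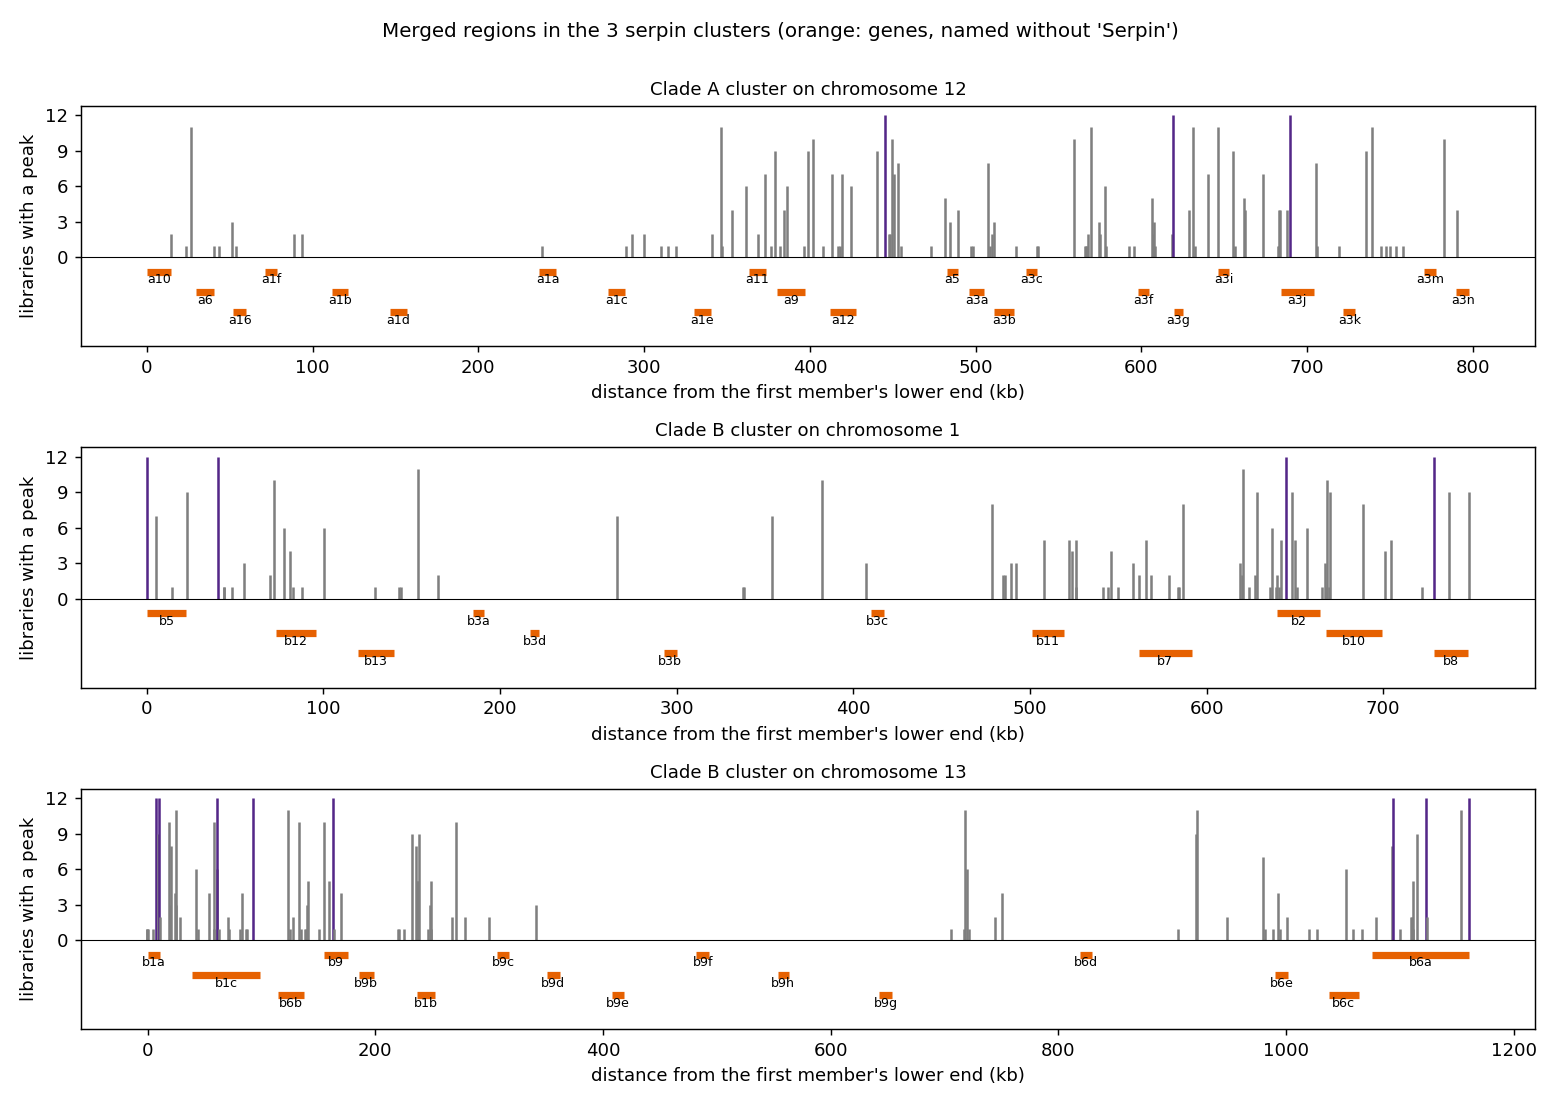
Merged regions in the 3 clusters, by distance (kb) from the lower end of the first member. The height of each line is the number of libraries with a peak there, purple lines mark regions in all 12, and orange bars are the genes, staggered to keep names apart. Long bare stretches lie over the Serpina1, Serpinb3 and Serpinb9 genes.

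The knockout contrast asks whether loss of AIRE goes with a change at these genes. A gene counted as gained if it was open in both mutants and closed in both of their wild types, and as lost in the reverse case. Of 52 members, 3 were gained in Aire -/-, all of clade B, where 5.21% of all genes were gained, and 0 were lost, against 0.0277%. The gained genes were Serpinb10 (bomapin, known from blood cell precursors), Serpinb1a and Serpinb1b. All 3 were open in wild types of the other sets: Serpinb10 and Serpinb1a in 4 of 4, Serpinb1b in 3 of 4. With all 6 wild types as controls, 0 members were gained, and only 53 of all 21631 genes were.

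The nearest peaks of the wild types behind these calls lay between 1 and 72718 bp outside the window. Beside Serpinb10 the widest peaks were 291 and 83 bp wide in Aire -/-, with the authors' fold enrichment at 5.41 and 4.98. The nearest peaks of their wild types lay 22772 and 2376 bp from a gene end. At Serpinb1a the same region (13:32852107-32852229) was called in all 12 libraries. Its peaks ended 993 bp from the gene end in both Aire -/- libraries and 1001 and 1010 bp away in their wild types, 1 and 10 bp past the limit of the window. At Serpinb1b the widest peaks were 212 and 349 bp wide with fold enrichments of 3.66 and 4.38, and the nearest wild-type peaks lay 1968 and 73718 bp away.

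With lists cut to equal length within each contrast, 1 member (Serpinb1a) was gained in Aire -/- and 1 (Serpina3g) was lost. Over all 21631 genes 173 were then gained and 339 lost, against 1128 and 6 with full lists. With windows of 500 bp, 0 members were gained, where 983 of all genes were. With windows of 2500 bp 3 were again gained, but other genes: Serpinb2, Serpina12 and Serpina3a, of which 2 are of clade A. With the whole gene counted, 2 were gained, Serpinb12 and Serpinb7. Of all genes, 1341 were gained with windows of 2500 bp and 1173 with the whole gene. Neither the clade nor the members of the gained group were thus fixed across windows. Without the second knockout-set wild type, 5 were gained and 2 (Serpina9 and Serpina3c) were lost, since 1 wild type then made the call. Of all genes 1818 were then gained and 98 lost.

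In Aire +/C313Y, 0 members were gained, against 0.846% of all genes, and 1 was lost, against 0.37%. The lost gene was Serpina3n, an antichymotrypsin-like inhibitor known from acute-phase and injury responses. Both C313Y-set wild types had a peak inside the gene, 108 and 370 bp wide and 518 and 236 bp from its 5′ end. The nearest peaks in the Aire +/C313Y libraries, 387 and 370 bp wide, lay 1368 and 1370 bp beyond the other end. Serpina3n was also open in the first Aire +/C442G library and in the first C442G-set wild type. Windows of 500 bp and of 2500 bp, and lists cut to the shortest of all 12, each gave 0 lost members. Of all genes they gave 75, 101 and 129. Without 1 library at a time, 1 to 4 were lost and 0 to 2 gained: without the second C313Y-set wild type 4 were lost, and without the first Aire +/C313Y library, labelled 2, 2 were lost. Without the Aire +/C313Y library labelled 3, 2 were gained, and without the first C313Y-set wild type 1 was gained. In the order given, these 4 settings had 525 and 344 of all genes lost, then 595 and 503 gained.

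In Aire +/C442G, 1 member was gained, against 0.897% of all genes, and 1 was lost, against 0.291%. The gained gene was Serpina7 on X, the thyroxine-binding globulin. Its peaks were 114 and 80 bp wide, with fold enrichments of 3.44 and 4.06 and −log10 q of 1.7 and 2.65. They lay 489 and 545 bp beyond the 3′ end of the gene, and no other library had one there. The lost gene was Serpina10, the inhibitor of factor Xa that acts with protein Z. Its wild-type peaks, 139 and 115 bp wide, had fold enrichments of 3.15 and 3.71, and −log10 q of 1.19 and 2.04. With peaks of −log10 q of at least 3 only, both calls were gone, and 290 of all genes were gained and 45 lost. Without 1 library at a time, 1 to 2 members were gained and 1 to 3 lost. Without the second C442G-set wild type 2 were gained and 3 lost, and without the first, or without the first Aire +/C442G library, 2 were lost. Of all genes 539 were gained and 215 lost without that second wild type. Without the first wild type 245 were lost, and without the first Aire +/C442G library 181.

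Over the 3 contrasts each gene was tested by an exact two-sided permutation test of openness, with genotype permuted within each contrast (216 assignments, smallest possible p 0.00926). Within 1 contrast of 2 against 2 the smallest possible p is 0.333. Of the members, 0 of 52 had an unadjusted p under 0.05, against 0.0786% of all genes, and the lowest p, 0.333 in the exact permutation test, was shared by 4. After Benjamini-Hochberg adjustment 0 members and 0 genes passed. Mutants were the more often open at 9 members, wild types at 10, and 33 were equal. Over all genes these numbers were 4173, 953 and 16505.

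Serpinb2 encodes the plasminogen activator inhibitor PAI-2, induced in epithelium and macrophages. Its annotated starts lie inside the listed gene and were not covered by the 1 kb rule. The region over them (1:107511117-107511555), which includes the promoter shown above, had peaks of 105 and 69 bp in Aire -/-, of 145 and 394 bp in Aire +/C313Y and of 142 bp in the first Aire +/C442G library. No peak was called there in the second Aire +/C442G library or in any of the 6 wild types. Read at annotated starts only, 3 members (Serpinb2, Serpinb10 and Serpinb12) were gained in Aire -/-, where 4.25% of the 17274 genes with a start were. Serpinb2 alone was gained in Aire +/C313Y, where 0.672% were. Its exact permutation p over the contrasts was 0.0278 unadjusted, a level reached by 16 genes (0.0926%), and 1.0 after adjustment over all genes. The start was open in 5 of 6 mutants and 0 of 6 wild types. Serpinb2 was chosen here after its values were seen. By the main rule it was open in 1 mutant and 2 wild types, at its lower end.

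Peak density in the clusters was read as a ratio to the genome of the same library. The clade A cluster on chromosome 12 had 10 to 55 peaks, a median ratio of 1.56 (0.967 to 1.73), and exceeded the genome in 11 of 12 libraries. The chromosome 1 cluster had 5 to 50 peaks and a median ratio of 1.3 (0.506 to 1.43), above the genome in 10 of 12. The chromosome 13 cluster had 14 to 57 peaks and a median ratio of 1.04 (0.931 to 1.26), above it in 8 of 12. By this ratio, which takes no account of gene number, the clusters as wholes were not poor in peaks, although few gene ends were open. The long stretches without a peak described above lie within them. Counted in base pairs, the median of the chromosome 1 cluster was 0.997.

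On chromosome 1 the ratios were 1.34 and 1.29 in Aire +/C313Y against 1.04 and 0.942 in their wild types, and 1.39 and 1.29 in Aire -/- against 0.506 and 1.24. In Aire +/C442G they were 1.43 and 1.31 against 1.42 and 1.37. The groups separated in the first pair of contrasts and overlapped in the third. On chromosome 12 the Aire +/C313Y ratios, 1.56 and 1.55, lay below those of their wild types, 1.73 and 1.65, and the Aire +/C442G ratios, 1.45 and 1.57, below 1.62 and 1.6. The knockout groups overlapped there, at 1.23 and 1.32 against 1.52 and 0.967. Counted in base pairs, the C313Y groups overlapped on chromosome 1, and the C313Y and C442G groups overlapped on chromosome 12. Other groups separated only in base pairs. These were the C442G groups on chromosome 1 (1.4 and 1.18 against 1.11 and 1.17) and the knockout groups on chromosome 12 (1.13 and 1.18 against 1.02 and 1.08). No test was made of these ratios.

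**Figure D4:**
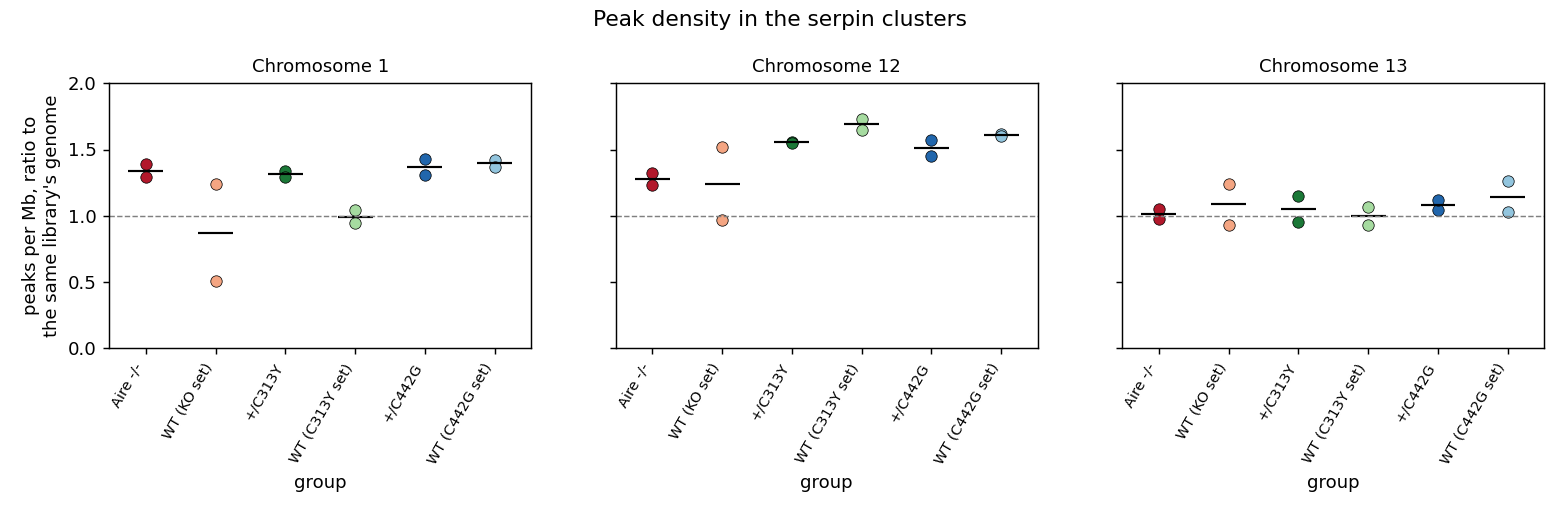
Peaks per Mb in each serpin cluster, as a ratio to the genome of the same library. Each point is 1 library, short lines are the means of the 2 libraries of a group, and the dashed line marks equality with the genome. Most points on chromosome 12 lie above the line, and those on chromosome 13 lie around it.

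By merged region, the clusters held 79, 104 and 97 regions on chromosomes 1, 12 and 13. Of these 4, 3 and 8 were called in all 12 libraries (5.06%, 2.88% and 8.25%, against 8.16% genome-wide). In Aire -/-, 14 of 46 regions present on chromosome 1 were gained (30.4%), 12 of 44 on chromosome 12 (27.3%) and 8 of 53 on chromosome 13 (15.1%), where 20.6% were gained genome-wide. None of them was lost in that contrast, where the genome-wide share was 0.0795%. In Aire +/C313Y, 7, 4 and 1 regions were gained (17.5%, 6.15% and 2.0%, against 4.45%), and 2, 2 and 0 were lost (against 1.39% genome-wide). In Aire +/C442G, 4, 4 and 3 were gained (6.06%, 5.88% and 4.05%, against 7.14%), and 1, 3 and 1 were lost (against 1.01%). Regions of a cluster share libraries and are not replicates.

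Most regions lay away from the gene ends. Near an end, inside a member and between members there were 11, 25 and 43 regions on chromosome 1, 18, 16 and 70 on chromosome 12, and 10, 49 and 38 on chromosome 13. Among those in all 12 libraries were 1 inside Serpinb2 (1:107505909-107506469), 1 inside Serpina3j (12:104305825-104306347) and 2 inside Serpinb1c (13:32903322-32903596 and 13:32934720-32935369). One inside Serpinb9 (13:33004200-33004969) covered its annotated start. Exons and introns were not told apart.

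Peak width was the one quantity held by all 12 lists, and it was compared over the 15 cluster regions called in all libraries. Their median log2 difference, mutant minus wild type, was 0.10, against 0.22 over 18634 such regions genome-wide, and 12 of 15 were wider in mutants, as were 15886 of the 18634. Relative to the median of each library's regions the direction turned: the median was -0.18 and 5 of 15 were wider, against -0.06 and 7545 genome-wide. By the exact permutation test over the contrasts, 1 region, inside Serpinb6a (13:33935508-33936208), had an unadjusted p under 0.05, where 17.2% of all such regions did. Its log2 difference was 0.42, the exact permutation p 0.0463 and the adjusted p 0.269. On the relative scale, 3 cluster regions had an unadjusted p under 0.05, where 13.0% did. The narrower region at the start of Serpinb5 was one, with a relative log2 difference of -0.71, an exact permutation p of 0.00926, the smallest the test can give, and an adjusted p of 0.26. No region passed adjustment, in the clusters or genome-wide.

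Promoter letters were searched on both strands of the 250 bases in 54 RefSeq promoters of 45 members and in all 21045 promoters of the table. Serpin promoters were poor in CG dinucleotides, with a median of 2 (3 in clade A, 1.5 in clade B) against 10 over all promoters. Serpinb6a was the exception, with 20 at its upstream start. The TATA box letters occurred in 29.6% of member promoters against 11.7%, the AP-1 letters in 22.2% against 6.17%, and the GC box letters in 9.26% against 43.1%. ETS letters occurred in 3.7% against 9.08%, and NF-kB letters (GGANTTTCC) in 1.85% (Serpinb12) against 1.09%. Near-identical sister promoters are not independent in these shares. A peak lay over 15 of the 54 promoters in some library and over 4 in all 12.

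Other genes of the pathway were taken from lists of serpins of other clades and of proteases. Among serpins of other clades, Serpini1 was open in all 12 libraries, Serpine2 and Serpinh1 in 11, Serping1 in 4 and Serpine3 in 1. The plasma inhibitors Serpinc1 (antithrombin), Serpind1 and Serpinf2 were closed throughout, as were Serpinf1 and Serpini2. None of these was gained or lost in any contrast. Of 27 proteases that serpins are known to inhibit, 6 were open in all libraries (F10, Plau, Plat, Ctsl, Ctsb and Casp8), 9 in none and 12 in some. Elane, Gzma, Gzmb and Gzmk were among the closed, while Gzmm and Prtn3 were open in 11 libraries and Ctsg in 3. Plau and Plat, the plasminogen activators that Serpinb2 inhibits, were among the always open. The epidermal kallikrein gene Klk14 was gained in Aire -/-, as were 5.21% of all genes, and no other protease was gained or lost in any contrast.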

How the data were processed

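ATAC-seq peak lists of 12 mTEChi libraries were analysed. Per the submitters' processing notes, the tools were cutadapt, Bowtie2, Picard and MACS2 and the build was mm10; no versions are named. Per the file headers and columns, 8 deposited lists give positions, a score, a ratio (fold enrichment) and −log10 p and −log10 q for each peak, as the authors' caller wrote them. The other 4, of the C313Y contrast, give positions only. How reads were shifted and deduplicated, and which threshold was set, is not given in the sources used here. Depth is unknown, so absence means not called.

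Peaks on chromosomes 1 to 19 and X were set against gene ends from RefSeq (GRCm38.p6), in a table without strand. Starts came from the promoter table, with an entry for 45 of 52 members. Overlap of at least 1 bp counted. Clusters joined members within 500 kb. Lists cut to equal length kept the peaks of greatest −log10 p. In the C313Y contrast, whose lists give no p, the widest peaks were kept instead. Calls were tested by exact permutation (Python 3.11.15, numpy 2.4.6, pandas 2.3.3), with Benjamini-Hochberg adjustment over all genes or regions. Promoter identity used edlib 1.3.9.post1. The procedure was tested on simulated lists.

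Named were all members by class, with widths for called and always open ones. Peaks were joined into merged regions over the 12 lists. The members and lists were chosen with earlier results of these data known. Added after seeing values were the annotated start of Serpinb2 and the split of chromosome 12 at Serpina11. The closing section lists the alternatives. Some listed genes (Tpsab1, Ctsv, Tf) matched no symbol, and some listed genes and motifs are not reported here.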

Additional observations from a re-analysis of the deposited data

How the results depend on the processing

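The main counts were 3 gained and 0 lost in Aire -/-, 0 and 1 in Aire +/C313Y, and 1 and 1 in Aire +/C442G. In Aire -/-, gained counts fell to 1 with lists of equal length within the contrast and over all 12 libraries, to 0 with windows of 500 bp, to 1 with the peak centre in the window and to 0 with all 6 wild types as controls. Over all genes these settings gave 173 by either length rule, then 983, 1082 and 53. Lost counts there were 1 with equal length by either rule and 2 by presence in at least 1 library against none. Over all genes they were 339 and 169. In Aire +/C313Y, gained counts were 3 with windows of 2500 bp, 1 with the whole gene, 1 at annotated starts and 2 by presence in at least 1 library. Over all genes they were 184, 125, 116 and 730. Lost counts were 0 with equal length over 12 libraries, with either other window (500 bp or 2500 bp) and with all 6 wild types, and 4 by presence in at least 1. Over all genes they were 129, 75 and 101 for the windows, 0 and 708. In Aire +/C442G, gained counts were 0 with −log10 q of at least 3, with equal length by either rule, with windows of 500 bp and at annotated starts. Over all genes they were 290, then 77 and 87 for the length rules, 186 and 141. Lost counts were 0 with −log10 q of at least 3, with equal length over 12, at annotated starts and with all 6 wild types, and 4 by presence in at least 1. Over all genes they were 45, 177, 51, 1 and 397. Leaving out 1 library gave 3 to 5 gained and 0 to 2 lost in Aire -/-, 0 to 2 and 1 to 4 in Aire +/C313Y, and 1 to 2 and 1 to 3 in Aire +/C442G. Of the list and window alternatives that could act, Serpina10 kept its call in 5 of 7, Serpina3n in 4 of 7, Serpinb1a in 3 of 7, Serpina7 and Serpinb10 in 3 of 8, and Serpinb1b in 0 of 8, and none changed direction. The −log10 q filter was not run for the C313Y contrast, whose lists give no q, and Serpina10 and Serpinb1a have no annotated start. The cause was not tested, beyond fewer peaks or fewer libraries by construction.

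The median number of open clade A genes, 5, became 2 with equal length over 12 libraries, 10 with windows of 2500 bp and 8.5 with the whole gene. That of clade B, 7, became 4 and, with the whole gene, 13.5. The count of members with an unadjusted exact p under 0.05, 0, became 1 at annotated starts. The median density ratio, in base pairs, moved from 1.3 to 0.997 on chromosome 1 and from 1.56 to 1.33 on chromosome 12.

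Same-numbered libraries exist in the knockout and C442G contrasts only, the labels give them nothing shared, and their deviations across 21631 genes had correlations of 0.008 and 0.017. With a replicate block there (96 assignments), 3 members were gained and 0 lost in Aire -/- and 1 and 1 in Aire +/C442G, which the definition fixes, and 0 members passed the gene test or, by width, the region test. With 2 libraries per group the exact permutation test cannot go below 0.333 within a contrast, and unknown depth limits every absence.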

Other observations

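Genes beside the 3 clusters were open in all 12 libraries more often than the members. That share was 7.69% of members and 46.6% of all genes. Of the 3 protein-coding genes next to each side, 4 of 6 at the chromosome 1 cluster were open in all 12 libraries (Bcl2, Kdsr, Vps4b and Dsel). At the chromosome 12 cluster 3 of 6 were (Ifi27l2a, Ppp4r4 and Dicer1), and at the chromosome 13 cluster 5 of 6 (Gmds, Wrnip1, Ripk1, Bphl and Tubb2a). Around Serpina7 on X 0 of 6 were, and 4 of the 6 were open in no library.

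Among regulators known from liver, Foxa3, Cebpa, Cebpb and Onecut1 were open in all 12 libraries, and Hnf4a in 1. Nr1h4 was gained in Aire -/-, as were 5.21% of all genes. Of 5 hepatocyte markers Apoa1 was open in all 12 libraries and Alb, Ttr, Fga and Fgb in none. Among epithelial regulators Ehf, Elf3, Grhl1 and Klf4 were open in all 12, and Grhl3 was among the 5.21% of genes gained in Aire -/-. Of 7 keratinocyte markers Krt1, Krt10 and Lor were open in all 12. Both Aire -/- libraries had 5 of the 7 open and both of their wild types 3. Of all genes, 61.3% and 63.0% were open there against 51.6% in both wild types, the same direction. Both Aire +/C313Y libraries had 6 against 4, where 63.0% and 59.2% of all genes were open against 61.0% and 59.2%. The Aire +/C442G libraries had 6 and 5 against 6 and 6. These gene groups were described by counts, and their relation to the serpin genes was not tested.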
